A study of Mus musculus with 12 samples.

Results

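Glucose uptake, glycolysis and the pentose phosphate pathway were followed across 12 RNA-seq libraries of sorted mouse thymus cells through 37 genes. They were taken by name for their enzyme or transport function and grouped by role: 4 sugar and lactate transporters, 3 hexokinases, 7 other genes of upper glycolysis, 3 enzymes of fructose 2,6-bisphosphate, 6 genes of lower glycolysis, 6 genes of pyruvate fate, 6 pentose phosphate genes, and 2 arrestins tied to glucose uptake. All 37 were in the deposited table of 43629 features, and 36 were among the 13944 genes with enough reads to test. The gene that was not tested, Hk3, a hexokinase of myeloid cells, had 17 reads summed over the DCKO libraries, 13 over DN3b and 44 over DN3a.

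The study compared 3 groups of pre-T cells from C57BL/6 thymus, each with 4 biological replicates. DCKO cells came from mice with floxed alleles of both Zfp36l1 and Zfp36l2 and a CD2cre transgene, which places Cre under the promoter and control elements of the lymphocyte gene CD2. DN3b and DN3a cells came from mice with the same floxed alleles and no CD2cre, so presence of Cre and loss of the genes cannot be told apart. DN3a is the stage before a T cell precursor has passed beta selection, the test of its rearranged T cell receptor beta chain, and DN3b is the stage after it. The gate that defined the DCKO cells, and the ages and sexes of the mice, were not given in the sources used here. RNA was read as stranded total RNA after removal of ribosomal RNA.

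Cells take up glucose through facilitative transporters, trap it with hexokinase, and split it in glycolysis to pyruvate, which is either reduced to lactate and exported or passed to the mitochondria. The pentose phosphate pathway branches from glucose 6-phosphate and yields NADPH and the ribose of nucleotides. Thymocytes that pass beta selection become large, divide rapidly and depend on Notch and PI3 kinase signals that are known to sustain glucose uptake. ZFP36L1 and ZFP36L2 are RNA-binding proteins that attach to AU-rich elements in the 3′ untranslated regions of mRNAs and speed their decay.

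The libraries held 30401159 to 41258922 counts in DCKO, 32359182 to 41664096 in DN3b and 28479157 to 45975678 in DN3a. Zfp36l1 lay at 1.64 to 3.8 CPM (counts scaled to library size with TMM factors) in DCKO, 9.63 to 23.3 in DN3b and 27.1 to 43.9 in DN3a. Zfp36l2 lay at 45.4 to 87.9 CPM in DCKO, 287 to 467 in DN3b and 341 to 685 in DN3a. All 10 markers of DN3 pre-T cells were detected, with a summed level of 10400 to 14200 CPM in DCKO, 5370 to 8670 in DN3b and 9460 to 12100 in DN3a. Markers that differ between the stages did not place DCKO with either control. Rag1 and Rag2, which cut the receptor genes for rearrangement, were higher in DCKO than in DN3b by 2.11 ± 0.37 (adjusted p = 0.00191) and 1.28 ± 0.27 (adjusted p = 0.00606) on the log2 scale, and so was the receptor subunit Cd3g by 1.26 ± 0.17 (adjusted p = 0.000293). Rag1 was also higher in DCKO than in DN3a, by 1.25 ± 0.36 (adjusted p = 0.00877). Between DCKO and DN3a, Rag2 (−0.05 ± 0.27, adjusted p = 0.891) and Cd3g (0.07 ± 0.16, adjusted p = 0.712) did not pass. Il2ra, the surface marker CD25, lay at 115 to 299 CPM in DCKO, 92 to 189 in DN3b and 516 to 946 in DN3a, and Cd8a at 1.05 to 3.87 CPM in DCKO, 2.33 to 4.1 in DN3b and 0.332 to 0.485 in DN3a, so that DCKO overlapped DN3b and not DN3a in both. Markers of B cells summed to 18.7 to 24.7 CPM in DCKO, 9.76 to 32.1 in DN3b and 42.7 to 58.4 in DN3a, and of these 1 of 6 passed the read filter while Pax5 lay near 0. Markers of myeloid cells, 5 of 10 of which passed, summed to 11.3 to 26.4 CPM in DCKO, 5.24 to 13.5 in DN3b and 23.7 to 34 in DN3a. Mitochondrial transcripts took 1.63 to 2.51% of counts in DCKO, 1.62 to 3.42% in DN3b and 2.88 to 4.31% in DN3a, with overlap of DN3b and DN3a. The nuclear RNA Malat1 took 0.0987 to 0.205% in DCKO, 0.0991 to 0.241% in DN3b and 0.583 to 0.841% in DN3a, which lay apart. The part of these marker levels and of RNA quality in the results below was not tested. Markers of gamma-delta T cells, mainly Cd24a, summed to 1260 to 1810 CPM in DCKO, 675 to 877 in DN3b and 765 to 976 in DN3a, and markers of thymic stroma to 105 to 212, 82.8 to 169 and 195 to 271 CPM in the same groups, with Pdgfra at 0 in all libraries. In DCKO library 1 a single feature took 9.02% of all counts. A lower level of a transcript in a bulk library may come from fewer cells that hold it or from less of it per cell, and these cannot be told apart here.

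Most of the genes stood higher in DCKO and in DN3b than in DN3a, and few differed between DCKO and DN3b. Against DN3a, DCKO cells had 21 of the 36 tested genes higher (58.3%) and 7 lower (19.4%), where 30.7% of all 13944 genes were called higher and 29.5% lower (60.2% in all). Against DN3a, DN3b cells had 22 higher (61.1%) and 7 lower (19.4%), where 27.4% of all genes were called higher and 25.2% lower (52.6% in all). Against DN3b, DCKO cells had 2 higher (5.56%) and 4 lower (11.1%), where 10.3% of all genes were called higher and 8.58% lower (18.9% in all), so neither share stood far from that of all tested genes. The calls are edgeR quasi-likelihood tests with Benjamini-Hochberg adjustment over all genes and a threshold of 0.05. DCKO against DN3a and DN3b against DN3a use the same DN3a libraries, so their counts are not independent of each other. With DCKO libraries 1 and 2 left out together, the call of DCKO against DN3b held for Pfkfb3 (0.7, adjusted p = 0.0231) and was lost for Hk2 (0.43, adjusted p = 0.297), Arrdc4 (−1.64, adjusted p = 0.105), Pfkfb2 (−0.57, adjusted p = 0.1), Eno3 (−0.62, adjusted p = 0.0868) and Pdk2 (−0.74, adjusted p = 0.362), a fit with 2 DCKO libraries.

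The median log2 fold change of the 36 genes was −0.1 for DCKO against DN3b, 0.54 for DCKO against DN3a and 0.59 for DN3b against DN3a, and over all tested genes it was −0.02, −0.04 and −0.02. A change of at least 2-fold was called for 2 of them between DCKO and DN3b, against 5.81% of all tested genes, for 17 between DCKO and DN3a, against 26.5%, and for 18 between DN3b and DN3a, against 19.6%. Upper quartile scaling in place of TMM moved the median of all genes to −0.10, −0.26 and −0.17, and of all calls it put 39%, 36.1% and 40% on the higher side, where TMM put 54.6%, 50.9% and 52%. The median of the 36 genes under that scaling was −0.18, 0.32 and 0.45, and no called gene among them changed sign. In the authors' deposited table of comparisons, 2 of the 37 genes were called higher and 4 lower in DCKO against DN3b, 21 higher and 6 lower in DCKO against DN3a, and 22 higher and 7 lower in DN3b against DN3a.

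**Figure D1:**
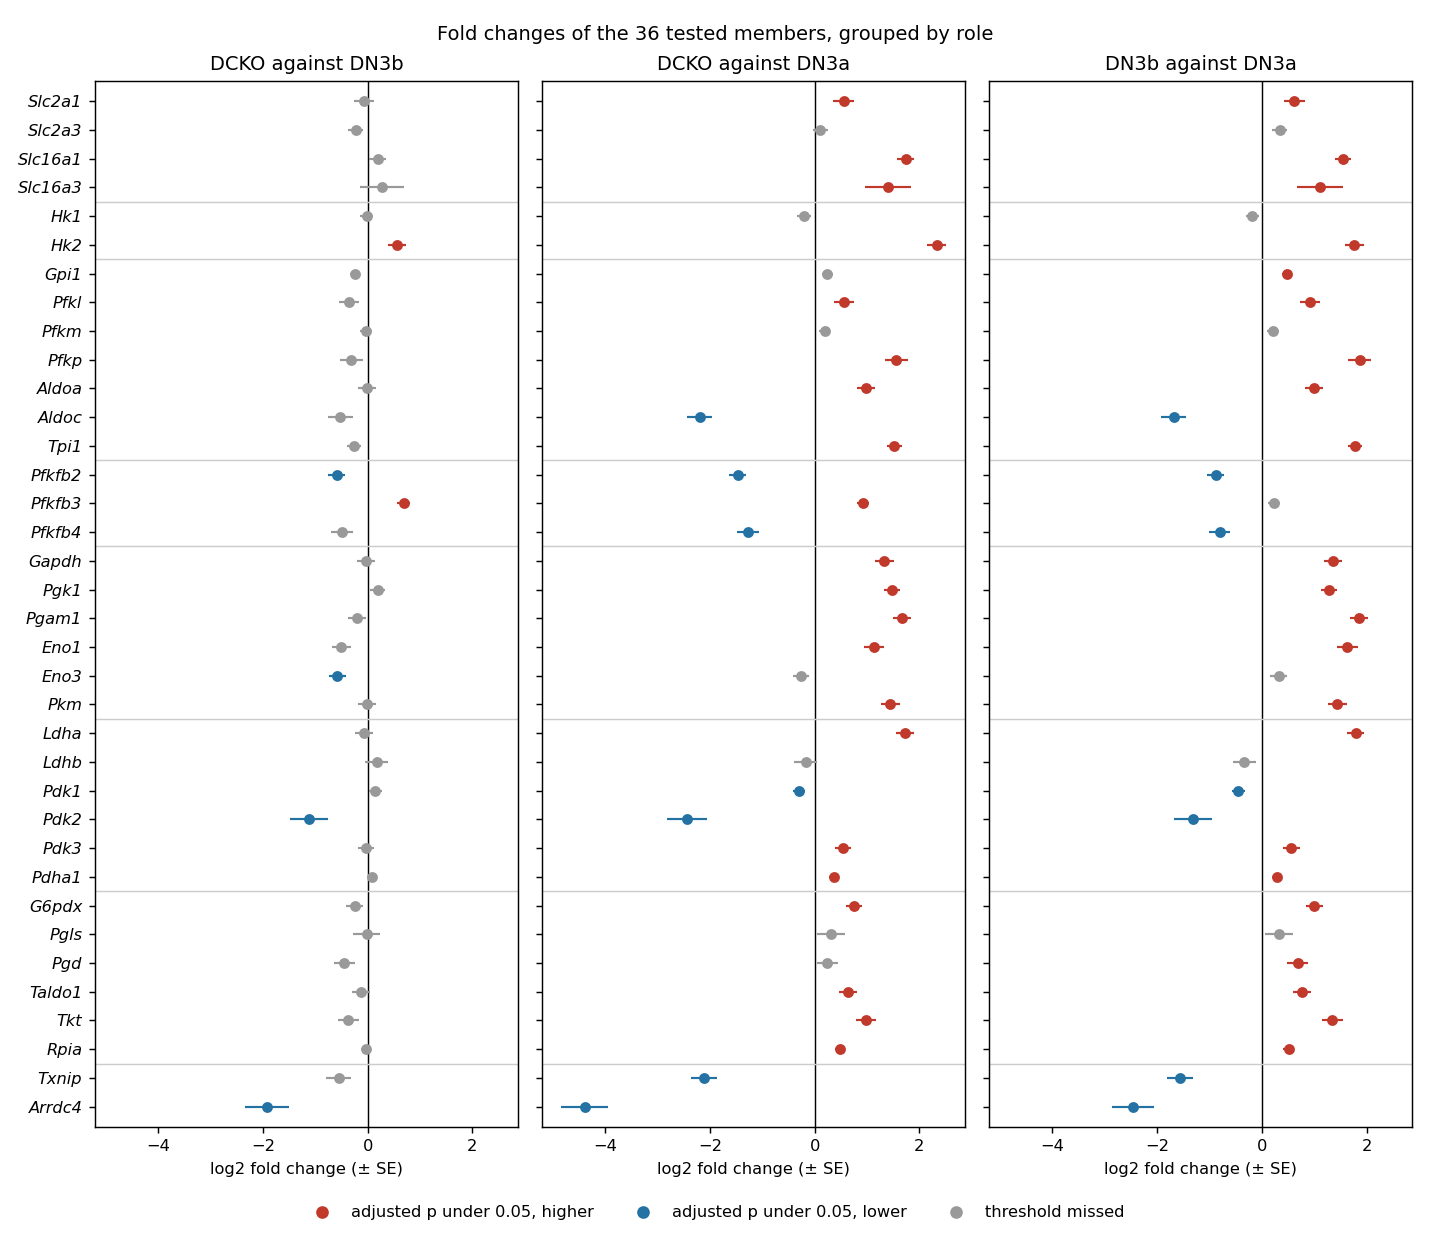
Log2 fold changes of the 36 tested genes in each comparison, with bars of 1 standard error. Points are red for genes called higher at an adjusted p under 0.05, blue for genes called lower, and grey for the rest. Between DCKO and DN3b most points lie close to 0, with Pfkfb3 at 0.69 and Arrdc4 at −1.93 farthest out on either side among the called genes.

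Among the transporters, the carrier of lactate and pyruvate Slc16a1 (MCT1) was the abundant one, and the glucose transporters were low. Slc16a1 (ENSMUSG00000032902, GRCm38 chromosome 3, 104638668 to 104658462) had 632, 546, 556 and 603 CPM in DCKO libraries 1 to 4, 382, 515, 526 and 627 in DN3b and 131, 184, 172 and 212 in DN3a. DCKO and DN3b libraries overlapped each other and all stood above every DN3a library. Its log2 fold change was 1.74 ± 0.16 (SE) in DCKO against DN3a (adjusted p = 5.49e-06) and 1.55 ± 0.16 in DN3b against DN3a (adjusted p = 3.45e-05), while DCKO against DN3b gave 0.19 ± 0.16 (adjusted p = 0.432).

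The glucose transporter Slc2a1 (GLUT1), which carries basal uptake in most dividing cells, had 13.1, 12.1, 10.5 and 13.8 CPM in DCKO, 16.2, 10.6, 12 and 13.1 in DN3b and 11.3, 5.9, 8.25 and 8.45 in DN3a. The other groups overlapped, and of DN3a only library 1 reached into their range. It was higher in DN3b than in DN3a (log2 fold change 0.62 ± 0.2, adjusted p = 0.0176) and in DCKO than in DN3a (0.55 ± 0.2, adjusted p = 0.0272). The DCKO call was lost without library 2 of DN3a (adjusted p = 0.0756), library 3 of DN3a (0.0592), or library 1 of DCKO (0.0726), 2 (0.0572) or 4 (0.0609), and under upper quartile scaling (0.145). The high-affinity glucose transporter Slc2a3 (GLUT3) had 28.2, 25, 21.6 and 22.8 CPM in DCKO, 25.2, 26.1, 28.4 and 34.5 in DN3b and 25.3, 20.2, 19.2 and 25.5 in DN3a. All 3 groups overlapped and it passed in no comparison. With the replicate number as a block, its log2 fold change of 0.32 in DN3b against DN3a had an adjusted p of 0.0304, against 0.0563 without the block, and it also passed without library 1 of DN3b (0.0361) or library 1 of DN3a (0.0461) or 4 (0.0425). Per kb of its longest coding transcript Slc2a3 stood above Slc2a1 in each group, at 6.17 against 3.8 CPM per kb in DCKO, 7.21 against 3.98 in DN3b and 5.7 against 2.6 in DN3a.

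The log2 ratio of Slc2a3 to Slc2a1 averaged 0.98 ± 0.17 in DCKO, 1.14 ± 0.34 in DN3b and 1.44 ± 0.3 in DN3a (SD, n = 4 each). It was lower in DCKO than in DN3a by an exact two-sided permutation test (p = 0.0286, adjusted p = 0.0429 over the 18 ratio tests), which is the smallest p that 4 against 4 libraries allow. The differences of DCKO against DN3b (exact p = 0.429) and DN3b against DN3a (exact p = 0.286) did not pass. The lactate exporter Slc16a3 (MCT4) was scarce, with 0.806, 0.445, 0.654 and 1.47 CPM in DCKO, 0.905, 0.687, 0.557 and 0.618 in DN3b and 0.354, 0.429, 0.355 and 0.0975 in DN3a. No DN3a library reached the other groups. Slc16a3 was called higher in DCKO than in DN3a (1.4 ± 0.44, adjusted p = 0.0146), a call lost without library 4 of DCKO (0.0603). The DN3b call against DN3a (1.12 ± 0.44, adjusted p = 0.0453) was lost when any one of 9 libraries was left out: library 1 of DN3a (0.0642), 3 (0.0732) or 4 (0.0974), library 1 of DN3b (0.102), 2 (0.0814), 3 (0.0614) or 4 (0.0691), or library 1 of DCKO (0.0607) or 3 (0.0588).

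**Figure D2:**
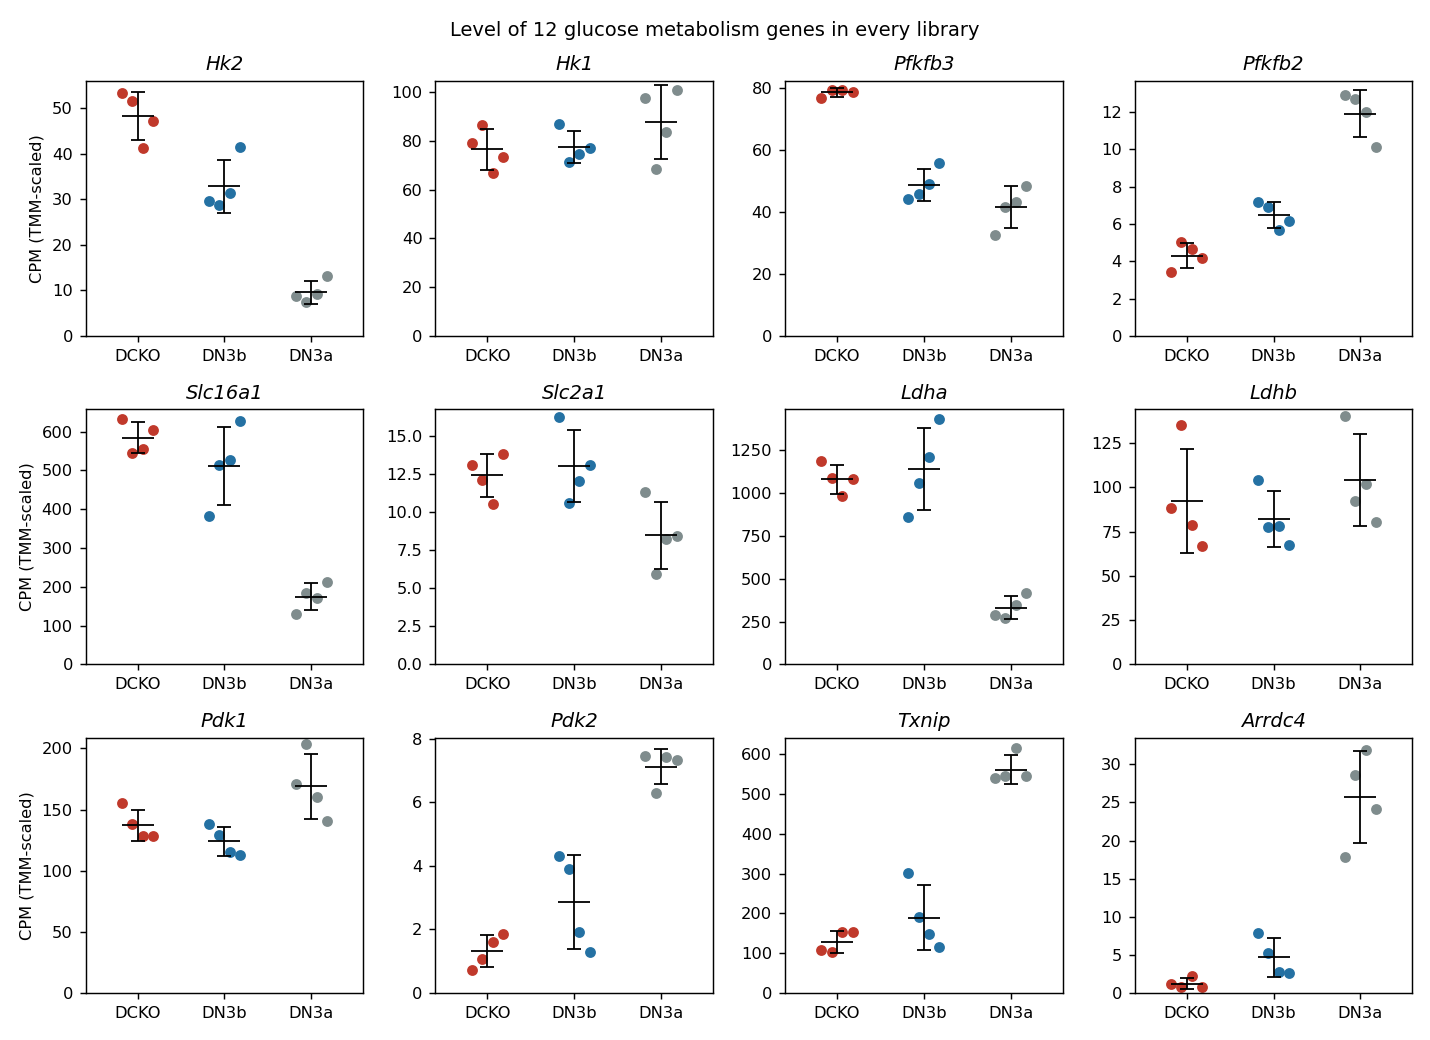
CPM in each library of Hk2, Hk1, Pfkfb3, Pfkfb2, Slc16a1, Slc2a1, Ldha, Ldhb, Pdk1, Pdk2, Txnip and Arrdc4, on a linear axis. DCKO, DN3b and DN3a stand from left to right, with a line at the group mean and bars of SD. Slc16a1 and Ldha separate both DCKO and DN3b from DN3a, Pfkfb3 separates DCKO from both other groups, and Txnip and Arrdc4 are highest in DN3a.

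Hexokinases phosphorylate glucose and so hold it in the cell, and of the 2 forms with enough reads only 1 was called in any comparison. Hk2 (ENSMUSG00000000628, GRCm38 chromosome 6, 82725025 to 82774454), the inducible form bound to mitochondria, had 53.2, 51.5, 41.3 and 47.2 CPM in DCKO, 29.7, 28.8, 31.3 and 41.4 in DN3b and 8.7, 7.44, 9.12 and 13.2 in DN3a. DN3a libraries lay apart below all others, and DN3b library 4, at 41.4, reached just into the DCKO range. The log2 fold change was 2.33 ± 0.18 in DCKO against DN3a (adjusted p = 2.63e-06), 1.77 ± 0.18 in DN3b against DN3a (adjusted p = 3.07e-05) and 0.56 ± 0.17 in DCKO against DN3b (adjusted p = 0.0397). The last call was close to the threshold: it was lost without library 1 of DCKO (adjusted p = 0.12), 2 (0.113), 3 (0.0519) or 4 (0.052), library 1 of DN3b (0.0853), 2 (0.125) or 3 (0.114), or library 3 of DN3a (0.0565), and under upper quartile scaling (0.0542). It was also lost with the replicate number as a block. Its fold change stayed between 0.43 and 0.67 over the 20 settings tried.

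Hk1, the constitutive form, had 79.2, 86.3, 66.8 and 73.5 CPM in DCKO, 86.7, 71.2, 74.6 and 77 in DN3b and 97.6, 68.3, 83.5 and 101 in DN3a. The groups overlapped and it passed in no comparison. With the replicate block the DN3b difference from DN3a of −0.19 had an adjusted p of 0.048. In DCKO against DN3a, −0.2 ± 0.13 (adjusted p = 0.197), it passed under upper quartile scaling (−0.42, adjusted p = 0.00808) and without library 2 of DN3a (−0.3, adjusted p = 0.0409). Per kb of coding transcript Hk1 stood above Hk2 in each group, at 17.9 against 8.76 CPM per kb in DCKO, 18.1 against 5.95 in DN3b and 20.5 against 1.75 in DN3a. The log2 ratio of Hk2 to Hk1 averaged −0.66 ± 0.07 in DCKO, −1.25 ± 0.27 in DN3b and −3.2 ± 0.22 in DN3a, with no overlap between any pair of groups. Each of the 3 differences gave the smallest possible exact permutation p of 0.0286 (adjusted 0.0429, two-sided). That of DCKO minus DN3b was 0.59. The permutation took libraries as unpaired. Within the 4 pairs of DN3b and DN3a libraries of one number the exact sign-flip p for this ratio was 0.125, the smallest possible.

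**Figure D3:**
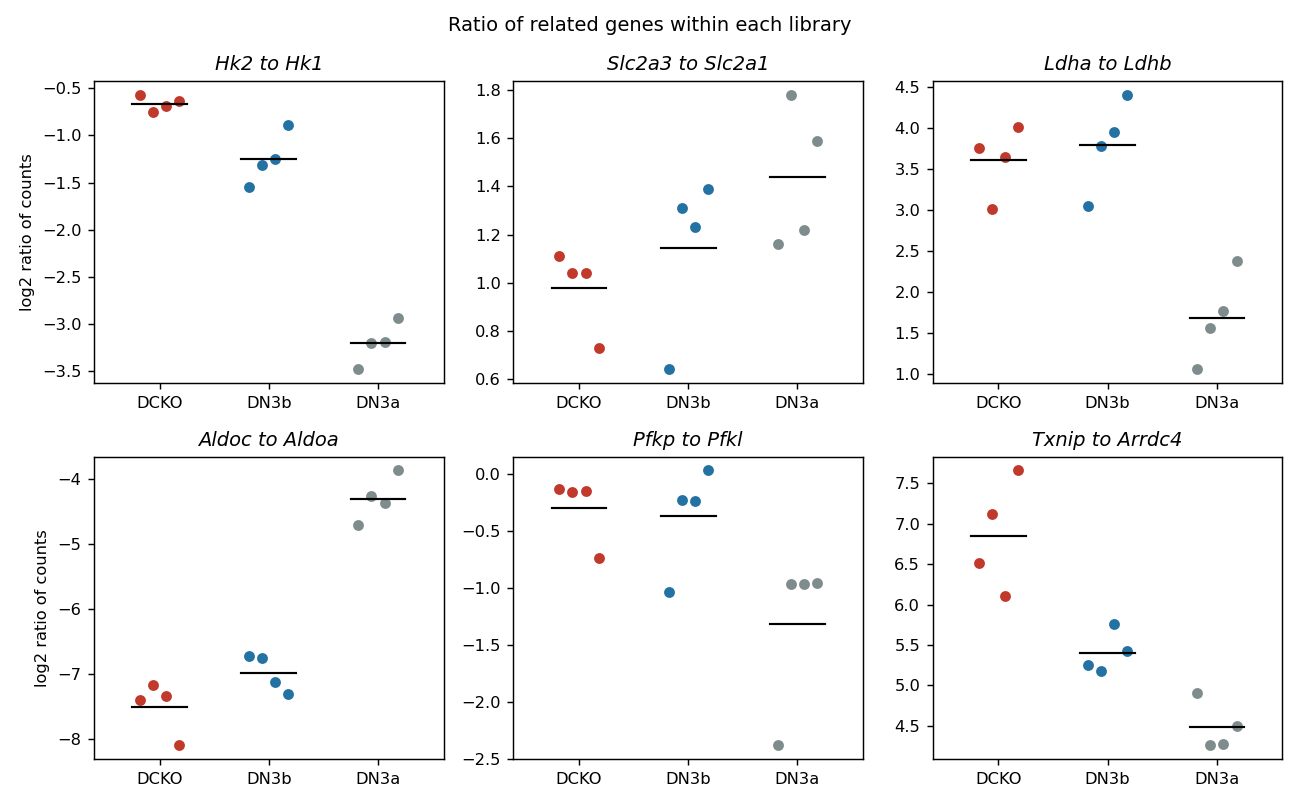
Log2 ratio of CPM between paired genes in each library, with DCKO, DN3b and DN3a from left to right and a line at the group mean. The Hk2 to Hk1 ratio lies at −0.75 to −0.57 in DCKO, −1.55 to −0.89 in DN3b and −3.48 to −2.94 in DN3a.

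In upper glycolysis no gene was called between DCKO and DN3b by edgeR, DESeq2 or limma-voom, and 2 of 7 were lower in DCKO at an unadjusted edgeR p under 0.05. Against DN3a, 4 of 7 were higher and 1 lower in DCKO, and 5 were higher and 1 lower in DN3b. Of all tested genes 30.7% were higher and 29.5% lower in the first of these comparisons, and 27.4% and 25.2% in the second. Between DCKO and DN3b edgeR called 18.9% of all tested genes. Pfkp, the platelet-type phosphofructokinase that commits sugar to glycolysis, had 92.8, 83.1, 75.5 and 76.2 CPM in DCKO, 74.2, 89.3, 110 and 133 in DN3b and 17.6, 23.8, 32.5 and 37.3 in DN3a. Every DCKO and DN3b library stood above the DN3a range. The log2 fold change was 1.56 ± 0.22 in DCKO against DN3a (adjusted p = 7.74e-05) and 1.87 ± 0.22 in DN3b against DN3a (adjusted p = 5.46e-05). The liver-type form Pfkl averaged 101 ± 19 CPM in DCKO, 130 ± 19.7 in DN3b and 68.6 ± 18.6 in DN3a. It was higher in DN3b than in DN3a by 0.92 ± 0.19 (adjusted p = 0.00163), and in DCKO than in DN3a by 0.56 ± 0.19 (adjusted p = 0.0214). The DCKO call was lost without library 2 of DN3a (adjusted p = 0.0578) or 3 (0.0541), without library 1 of DCKO (0.053) or 4 (0.0669), and under upper quartile scaling (0.116). The muscle-type Pfkm, at 33.3 ± 4.67, 33.9 ± 1.45 and 29.3 ± 2.73 CPM in DCKO, DN3b and DN3a, passed in no comparison.

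The log2 ratio of Pfkp to Pfkl averaged −0.3 ± 0.3 in DCKO, −0.37 ± 0.47 in DN3b and −1.32 ± 0.7 in DN3a. By the exact permutation test it was higher in DCKO than in DN3a by 1.02 (p = 0.0286, adjusted p = 0.0429), or by 0.67 without library 1 of DN3a, and the difference of DN3b against DN3a did not pass (exact p = 0.114, unpaired). Within the pairs of DN3b and DN3a libraries of one number the ratio was higher in DN3b in 4 of 4 pairs, by 1.33, 0.74, 0.73 and 0.99 (mean 0.95 ± 0.28), at an exact sign-flip p of 0.125, the smallest that 4 pairs allow. Triose phosphate isomerase Tpi1, which interconverts the products of aldolase, had 362, 287, 249 and 334 CPM in DCKO, 314, 363, 390 and 411 in DN3b and 103, 90.9, 111 and 126 in DN3a. DN3a lay below all libraries of the others, with log2 fold changes of 1.52 ± 0.14 (adjusted p = 4.74e-06) in DCKO and 1.78 ± 0.14 (adjusted p = 2.58e-05) in DN3b against DN3a. Gpi1, the isomerase of glucose 6-phosphate, averaged 355 ± 24.9, 418 ± 28.7 and 301 ± 31.9 CPM in DCKO, DN3b and DN3a. It was higher in DN3b than in DN3a (0.48 ± 0.1, adjusted p = 0.00169). Its DCKO values missed the threshold against DN3a (0.24 ± 0.1, adjusted p = 0.054), but passed it without library 1 of DN3a (0.0473), with DESeq2 (0.0389) and with limma-voom (0.0461). Against DN3b the DCKO value of −0.24 ± 0.1 (adjusted p = 0.115) passed under upper quartile scaling (−0.31, adjusted p = 0.034).

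The 2 aldolases, which cleave fructose 1,6-bisphosphate, moved in opposite directions. Aldoa, the muscle and housekeeping form, had 297, 259, 182 and 276 CPM in DCKO, 251, 217, 263 and 292 in DN3b and 166, 100, 123 and 123 in DN3a. Aldoc, the form best known from brain, had 1.73, 1.78, 1.1 and 0.989 CPM in DCKO, 2.36, 1.99, 1.86 and 1.82 in DN3b and 6.31, 5.19, 5.92 and 8.35 in DN3a. For both genes the DN3a libraries lay apart from all others, below for Aldoa and above for Aldoc. Aldoa had log2 fold changes of 0.98 ± 0.17 (adjusted p = 0.000334) in DCKO and 1.0 ± 0.17 (adjusted p = 0.00046) in DN3b against DN3a. Aldoc had −2.2 ± 0.24 (adjusted p = 1.29e-05) and −1.68 ± 0.24 (adjusted p = 0.000126). Between DCKO and DN3b the 4 Aldoc values did not overlap but the fold change of −0.52 ± 0.24 missed the threshold (adjusted p = 0.144).

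Fructose 2,6-bisphosphate is the strongest activator of phosphofructokinase, and the enzymes of the Pfkfb family both make and remove it. Pfkfb3, the form with the greatest balance toward synthesis, had the smallest adjusted p of the 36 genes between DCKO and DN3b. Pfkfb3 (ENSMUSG00000026773, GRCm38 chromosome 2, 11471433 to 11554077) had 76.6, 79.4, 79.2 and 78.7 CPM in DCKO, 44, 45.9, 49 and 55.6 in DN3b and 32.4, 41.7, 43.2 and 48.5 in DN3a. All 4 DCKO libraries lay within a narrow band above every other library, and DN3b and DN3a overlapped. The log2 fold change was 0.69 ± 0.12 in DCKO against DN3b (adjusted p = 0.00174) and 0.92 ± 0.12 in DCKO against DN3a (adjusted p = 3.71e-05). In DN3b against DN3a it was 0.23 ± 0.12 (adjusted p = 0.118), which passed with the replicate block (0.21, adjusted p = 0.0283) and without library 4 of DN3a (0.32, adjusted p = 0.0456). The call against DN3b held under all 20 settings tried, with fold changes of 0.61 to 0.75 and adjusted p of 2.62e-06 to 0.0231.

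Against DN3a, Pfkfb2 and Pfkfb4 went the other way. Pfkfb1, a relative outside the member list, went with Pfkfb3 in DCKO. Over 20 settings other than the reported fit it was higher in DCKO than in DN3a by 1.03 to 1.32 (adjusted p of 1.61e-06 to 0.00443). In DN3b against DN3a its log2 fold change was 0.55 to 0.88 (adjusted p of 0.00225 to 0.0806). In DCKO against DN3b it was 0.37 to 0.67 (adjusted p of 0.0654 to 0.238). Pfkfb2, the heart form, which is regulated by insulin and AKT, had 3.43, 5.01, 4.63 and 4.15 CPM in DCKO, 7.19, 6.92, 5.65 and 6.18 in DN3b and 12.9, 12.7, 12 and 10.1 in DN3a. No group overlapped another. It was lower in DCKO than in DN3b by −0.59 ± 0.16 (adjusted p = 0.0218), in DCKO than in DN3a by −1.47 ± 0.16 (adjusted p = 1.23e-05) and in DN3b than in DN3a by −0.88 ± 0.16 (adjusted p = 0.000579). The DCKO call against DN3b was lost without library 2 of DN3b (adjusted p = 0.055) or library 1 of DCKO (0.0506), and with the replicate number as a block. Pfkfb4 had 5.68, 4.76, 4.89 and 5.52 CPM in DCKO, 10.1, 7.98, 6.34 and 4.75 in DN3b and 14.7, 12.5, 12.6 and 11 in DN3a. DN3a stood above both other groups, which overlapped through DN3b library 4. Pfkfb4 was lower than in DN3a in DCKO (−1.28 ± 0.21, adjusted p = 0.000184) and in DN3b (−0.8 ± 0.2, adjusted p = 0.00566). Its DCKO difference from DN3b, −0.49 ± 0.21 (adjusted p = 0.115), passed without library 4 of DN3b (−0.66, adjusted p = 0.0229). Per kb of coding transcript Pfkfb3 stood above Pfkfb2 and Pfkfb4 in each group. It had 16.3 CPM per kb in DCKO, 10.1 in DN3b and 8.63 in DN3a, where Pfkfb2 had 0.972, 1.47 and 2.7.

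ZFP36 proteins are known to bind the nonamer TTATTTATT, written here as DNA, and its shorter core, and Hk2 and Pfkfb3, the members called higher in DCKO than in DN3b, both carry the nonamer in their annotated 3′ untranslated region. The nonamer was searched on the sense strand of the 3′ region of one coding transcript per gene (GENCODE M21, GRCm38). It was found in 4 of the 37 genes, and in 7.59% of 20613 genes. The 30 bases around the site are printed 5′ to 3′ as DNA with the nonamer in capitals, because the floxed genes encode proteins known to read it.
Hk2: tttatacgagTTATTTATTccagactgttt
Pfkfb3: gatgtgctatTTATTTATTtaatatgtata
Pfkm: aaaataagctTTATTTATTtctttgtgata
Slc2a3: aacttgagttTTATTTATTttatcttcagg
The sites began at base 1391, 2434, 290 and 451 of those regions. Of the 4 genes, Pfkm (log2 fold change −0.03 ± 0.11, adjusted p = 0.892) and Slc2a3 (−0.23 ± 0.14, adjusted p = 0.278) did not pass between DCKO and DN3b. The 7-base core TATTTAT, which every nonamer contains, was found in 10 of the 37 genes and in 27.54% of all genes with a 3′ region. Among those 10 was Pfkfb2, one of the genes lower in DCKO than in DN3b. A match of letters is a description of the sequence and not evidence of binding. Over all tested genes, 924 held the nonamer, of which 26.1% were called higher and 5.63% lower in DCKO than in DN3b, with a median log2 fold change of 0.18. Of the 10727 tested genes without it, 10.6% were called higher and 9.6% lower, with a median of −0.02. In DCKO against DN3a, 36.6% of genes with the nonamer were called higher and 26.6% lower, against 34.6% and 27.5% of genes without it. In DN3b against DN3a, 23.1% of genes with it were called higher and 31.3% lower, against 31.6% and 23.4% of genes without it. The 3′ regions of genes with the nonamer were longer, with a median of 2352.5 bases against 1059, and the part of length in these differences was not tested.

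Lower glycolysis, which harvests ATP and NADH from the triose phosphates, had 5 of 6 genes higher in DCKO than in DN3a and 5 of 6 higher in DN3b than in DN3a, each by more than 2-fold. Between DCKO and DN3b 1 of 6 was called, and it was lower in DCKO. Among all tested genes 8.58% were called lower in DCKO than in DN3b. The shares called higher than in DN3a were 30.7% in DCKO and 27.4% in DN3b. Pkm, the pyruvate kinase gene, had 1200, 1020, 745 and 1180 CPM in DCKO, 1040, 898, 1130 and 1100 in DN3b and 463, 275, 384 and 408 in DN3a. DCKO and DN3b overlapped each other and lay wholly above DN3a. The log2 fold changes were 1.44 ± 0.18 in DCKO (adjusted p = 2.78e-05) and 1.44 ± 0.18 in DN3b (adjusted p = 6.06e-05) against DN3a, and −0.01 ± 0.17 between DCKO and DN3b (adjusted p = 0.986).

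Gapdh, which oxidizes glyceraldehyde 3-phosphate, had 718, 709, 613 and 809 CPM in DCKO, 646, 621, 802 and 846 in DN3b and 317, 188, 287 and 340 in DN3a. Its log2 fold change against DN3a was 1.33 ± 0.18 in DCKO (adjusted p = 4.27e-05) and 1.36 ± 0.18 in DN3b (adjusted p = 7.67e-05). Pgk1, which catalyses the first ATP-forming step, had 575, 504, 444 and 445 CPM in DCKO, 332, 428, 449 and 522 in DN3b and 148, 164, 182 and 215 in DN3a. For both genes the DN3a libraries lay below all others, and DCKO and DN3b overlapped. Pgk1 was higher than in DN3a by 1.47 ± 0.15 in DCKO (adjusted p = 9.72e-06) and by 1.29 ± 0.15 in DN3b (adjusted p = 5.3e-05). The phosphoglycerate mutase Pgam1 had 83, 67.7, 53.7 and 64.1 CPM in DCKO, 60.1, 70.2, 85.6 and 92.5 in DN3b and 19.4, 17.4, 22.3 and 25.7 in DN3a. It was higher than in DN3a by 1.66 ± 0.17 in DCKO (adjusted p = 9.24e-06) and by 1.86 ± 0.17 in DN3b (adjusted p = 2.58e-05), again with no overlap. Sequence limits how these genes can be read: 82.49% of the 50-base stretches of Gapdh, 72.19% of Eno1, 67.96% of Pgk1, 41.48% of Pgam1 and 34.41% of Pkm also occur in other annotated genes, mostly processed copies, and how the authors assigned such reads was not given in the sources used here.

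The enolases differed between groups by form. Eno1, the ubiquitous enolase, had 136, 148, 146 and 217 CPM in DCKO, 180, 192, 275 and 271 in DN3b and 78.4, 53.9, 80.2 and 83.6 in DN3a. DCKO library 4 stood apart from the other DCKO libraries and within the DN3b range. Eno1 was higher than in DN3a in DCKO (1.13 ± 0.19, adjusted p = 0.000296) and in DN3b (1.63 ± 0.2, adjusted p = 5.48e-05). Its DCKO difference from DN3b, −0.5 ± 0.19, missed the threshold (adjusted p = 0.084) and passed it without library 4 of DCKO (−0.68, adjusted p = 0.021), without library 1 of DN3b (−0.6, adjusted p = 0.0499) and under upper quartile scaling (−0.58, adjusted p = 0.0456). Eno3, the muscle enolase, had 6.25, 4.87, 4.44 and 6.09 CPM in DCKO, 7.88, 7.51, 8.46 and 8.46 in DN3b and 6.25, 6.21, 7.56 and 5.91 in DN3a. Every DN3b library lay above every DCKO library and DN3a overlapped both. Eno3 was lower in DCKO than in DN3b by −0.58 ± 0.16 (adjusted p = 0.022), a call lost without library 3 of DN3b (0.0579) or library 2 of DCKO (0.0653) or 3 (0.0608), and with the replicate number as a block. It did not pass in DN3b against DN3a (0.32 ± 0.16, adjusted p = 0.103) or in DCKO against DN3a (−0.26 ± 0.16, adjusted p = 0.162), where upper quartile scaling gave −0.49 (adjusted p = 0.0161).

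At the end of glycolysis, Ldha, the muscle-type lactate dehydrogenase subunit that favours lactate, was the most abundant of the 37 genes per kb of coding transcript in DCKO and DN3b. Ldha (ENSMUSG00000063229, GRCm38 chromosome 7, 46841475 to 46855627) had 1190, 1090, 981 and 1080 CPM in DCKO, 860, 1060, 1210 and 1430 in DN3b and 289, 269, 346 and 418 in DN3a. DCKO and DN3b overlapped, and all libraries of both stood above DN3a. Ldha was higher than in DN3a by 1.72 ± 0.17 in DCKO (adjusted p = 7.18e-06) and by 1.79 ± 0.17 in DN3b (adjusted p = 2.58e-05). The heart-type subunit Ldhb, which favours lactate oxidation, had 88.5, 135, 78.8 and 67.1 CPM in DCKO, 104, 77.5, 78.4 and 67.5 in DN3b and 140, 92, 102 and 80.6 in DN3a. All 3 groups overlapped and it passed in no comparison. With the replicate block its DN3b difference from DN3a was −0.35 (adjusted p = 0.00149). The log2 ratio of Ldha to Ldhb averaged 3.6 ± 0.42 in DCKO, 3.79 ± 0.56 in DN3b and 1.68 ± 0.55 in DN3a. The exact permutation p, which took libraries as unpaired, was 0.0286 (adjusted 0.0429) for DCKO and for DN3b against DN3a and 0.6 between DCKO and DN3b. Within the 4 pairs of DN3b and DN3a libraries of one number the exact sign-flip p was 0.125, the smallest possible.

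Pyruvate dehydrogenase kinases switch off the entry of pyruvate into the citric acid cycle, and the 3 kinase genes among the members differed in direction. Pdk2, the widespread form, had 0.726, 1.06, 1.59 and 1.85 CPM in DCKO, 4.31, 3.9, 1.91 and 1.3 in DN3b and 7.46, 6.31, 7.42 and 7.34 in DN3a. DN3b libraries 1 and 2 stood above every DCKO library, while library 3 lay just above and library 4 within the DCKO range, and DN3a lay above both groups. Pdk2 was lower than in DN3a in DCKO (−2.44 ± 0.38, adjusted p = 0.000136) and in DN3b (−1.31 ± 0.36, adjusted p = 0.00786). The DCKO call against DN3b, −1.12 ± 0.37, lay at the threshold (adjusted p = 0.0499) and was lost in 14 of 20 settings. These included the omission of library 1 of DN3b (−0.86, adjusted p = 0.132) or 2 (0.129), of library 1 of DCKO (0.125), 2 (0.124) or 3 (0.0731), and of any DN3a library (0.0538 to 0.0696).

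Pdk1, the form known as a target of hypoxia signalling, had 155, 138, 128 and 128 CPM in DCKO, 138, 129, 115 and 113 in DN3b and 171, 204, 160 and 141 in DN3a. DN3a stood above DN3b and overlapped DCKO. Pdk1 was lower in DN3b than in DN3a (−0.45 ± 0.12, adjusted p = 0.00692) and in DCKO than in DN3a (−0.3 ± 0.12, adjusted p = 0.043). The DCKO call was lost without library 1 of DN3a (0.0647), 2 (0.15) or 3 (0.0571) or library 2 of DCKO (0.0556), 3 (0.0729) or 4 (0.103). Pdk3, another kinase of the complex, had 72.4, 66.7, 59.3 and 47.5 CPM in DCKO, 50.1, 61.5, 60.5 and 78.5 in DN3b and 34.7, 44.9, 43.2 and 46.6 in DN3a. DCKO and DN3b both lay just above DN3a. Pdk3 was higher than in DN3a in DCKO (0.54 ± 0.16, adjusted p = 0.00992) and in DN3b (0.56 ± 0.16, adjusted p = 0.00915). Pdha1, the catalytic subunit of pyruvate dehydrogenase, averaged 308 ± 29.7, 290 ± 23.8 and 238 ± 10 CPM in DCKO, DN3b and DN3a. It was higher than in DN3a in DCKO (0.37 ± 0.09, adjusted p = 0.00408) and in DN3b (0.29 ± 0.09, adjusted p = 0.0205). The DN3b call on Pdha1 was lost without library 4 of DN3b (0.0756) or library 1 of DN3a (0.0577), and upper quartile scaling ended the Pdha1 calls of DCKO (0.172) and DN3b (0.204) and the DCKO call on Pdk3 (0.31, adjusted p = 0.0931). The DCKO call on Pdk3 was also lost without DCKO libraries 1 and 2 together (0.32, adjusted p = 0.176).

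**Figure D4:**
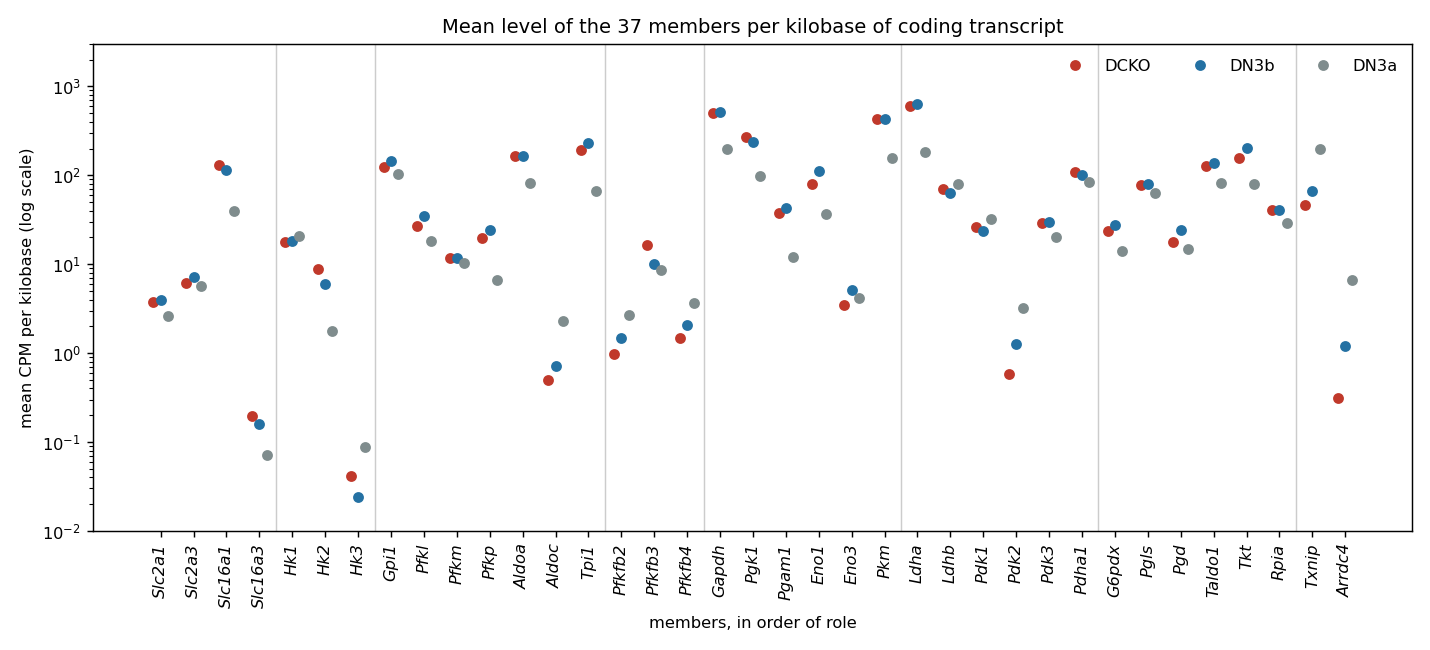
Mean level of each of the 37 genes in CPM per kb of its longest coding transcript, on a log axis, in the order of their roles, with a colour for each group. Ldha reaches 598 in DCKO, 628 in DN3b and 182 in DN3a, and Txnip 45.8, 66.9 and 199.

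No pentose phosphate gene was called between DCKO and DN3b by edgeR, DESeq2 or limma-voom, and 1 of 6 was lower in DCKO at an unadjusted edgeR p under 0.05. Of these genes 4 of 6 were higher in DCKO than in DN3a and 5 of 6 in DN3b than in DN3a. Of all tested genes the shares were 30.7% and 27.4%, and edgeR called 18.9% of all tested genes between DCKO and DN3b. G6pdx, the X-linked enzyme that opens the oxidative branch and sets its rate, had 67.9, 70, 56.7 and 54 CPM in DCKO, 56, 71.1, 80.7 and 87.9 in DN3b and 29.7, 34.6, 39.1 and 44.2 in DN3a. All DCKO and DN3b libraries lay above those of DN3a. G6pdx was higher than in DN3a by 0.75 ± 0.16 in DCKO (adjusted p = 0.00119) and by 1.0 ± 0.16 in DN3b (adjusted p = 0.000254). Pgd, the second NADPH-forming enzyme, averaged 39.2 ± 7.34, 53.7 ± 13.7 and 33.2 ± 6.48 CPM in DCKO, DN3b and DN3a. It was higher in DN3b than in DN3a (0.69 ± 0.2, adjusted p = 0.0106). Against DN3a the DCKO value of 0.24 ± 0.2 did not pass (adjusted p = 0.307), and against DN3b its −0.45 ± 0.2 (adjusted p = 0.129) passed without DN3b library 1 alone (−0.59, adjusted p = 0.04).

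In the non-oxidative branch, which exchanges sugar phosphates with glycolysis, transketolase Tkt had 547, 441, 399 and 635 CPM in DCKO, 747, 519, 684 and 670 in DN3b and 329, 171, 245 and 282 in DN3a. DCKO and DN3b overlapped, and both stood wholly above DN3a. The log2 fold change was 0.98 ± 0.2 in DCKO (adjusted p = 0.001) and 1.35 ± 0.2 in DN3b (adjusted p = 0.000181) against DN3a. Transaldolase Taldo1 averaged 172 ± 35.2 CPM in DCKO, 189 ± 23.7 in DN3b and 111 ± 25.3 in DN3a, with 0.64 ± 0.17 (adjusted p = 0.00619) and 0.77 ± 0.17 (adjusted p = 0.00252) against DN3a. Rpia, which forms ribose 5-phosphate, averaged 73.7 ± 5.85, 75.1 ± 6.81 and 52.7 ± 5.79 CPM in DCKO, DN3b and DN3a, with 0.48 ± 0.1 (adjusted p = 0.00134) and 0.51 ± 0.1 (adjusted p = 0.00126). The lactonase Pgls passed in no comparison, with 62.8 to 120 CPM in DCKO, 66.2 to 122 in DN3b and 49.1 to 98.5 in DN3a. With the replicate block its DN3b difference from DN3a was 0.31 (adjusted p = 0.00169).

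Both arrestins were lower in DCKO and in DN3b than in DN3a, and Arrdc4 had the largest decrease of the 36 genes in both comparisons. TXNIP lowers glucose uptake by driving internalization of glucose transporters and also binds thioredoxin, and its relative ARRDC4 shares the effect on glucose uptake. Txnip (ENSMUSG00000038393, GRCm38 chromosome 3, 96557957 to 96561883) had 108, 103, 154 and 152 CPM in DCKO, 302, 192, 148 and 115 in DN3b and 539, 546, 615 and 546 in DN3a. DN3a was far above the other groups, DN3b libraries 1 and 2 stood above all DCKO libraries, and DN3b libraries 3 and 4 lay within the DCKO range. Txnip was lower than in DN3a by −2.12 ± 0.25 in DCKO (adjusted p = 2.16e-05) and by −1.57 ± 0.25 in DN3b (adjusted p = 0.000261). The DCKO difference from DN3b, −0.55 ± 0.24, did not pass (adjusted p = 0.134) except without library 4 of DN3b (−0.74, adjusted p = 0.0325). In DN3a its level per kb of coding transcript, 199 CPM per kb, was that of Gapdh and above the 182 of Ldha. The gene overlaps Gm15441 on the opposite strand over 606 exonic bases, and Gm15441 averaged 0.209 CPM in DCKO and 0.53 in DN3a.

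Arrdc4 (ENSMUSG00000042659, GRCm38 chromosome 7, 68736995 to 68749241) had 1.17, 0.724, 2.22 and 0.734 CPM in DCKO, 7.93, 5.28, 2.71 and 2.67 in DN3b and 17.9, 28.6, 31.9 and 24.2 in DN3a. No group overlapped another, and as with Txnip and Pdk2 the DN3b libraries 1 and 2 were the highest of their group. Arrdc4 was lower in DCKO than in DN3b by −1.93 ± 0.42 (adjusted p = 0.0074), in DCKO than in DN3a by −4.39 ± 0.45 (adjusted p = 8.56e-06), a 20.9-fold difference, and in DN3b than in DN3a by −2.46 ± 0.4 (adjusted p = 0.000323). The call of DCKO against DN3b held when any single library was left out. It was lost with the replicate number as a block and without DCKO libraries 1 and 2 together (−1.64, adjusted p = 0.105). The log2 ratio of Txnip to Arrdc4 averaged 6.85 ± 0.68 in DCKO, 5.4 ± 0.26 in DN3b and 4.48 ± 0.31 in DN3a. All 3 pairs of groups were apart (exact permutation p = 0.0286, adjusted 0.0429 each, two-sided, unpaired). Within the 4 pairs of DN3b and DN3a libraries of one number the exact sign-flip p was 0.125, the smallest possible.

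TXNIP and ARRDC4 are known targets of the glucose-sensing factor MondoA (Mlxip) and its partner Mlx, which bind paired E-boxes. The promoters, 250 bases before to 50 bases after the start site (RefSeq, GRCm38.p6), are printed 5′ to 3′ on the gene's strand, because both genes were lower in DCKO and in DN3b than in DN3a. Capitals mark the paired motif CACGNGNNNNNCACGNG in Txnip at −85 to −69 from the start site, and the single E-box CACGTG in Arrdc4 at −193 to −188.
Txnip, chr3:96557707-96558006 (+): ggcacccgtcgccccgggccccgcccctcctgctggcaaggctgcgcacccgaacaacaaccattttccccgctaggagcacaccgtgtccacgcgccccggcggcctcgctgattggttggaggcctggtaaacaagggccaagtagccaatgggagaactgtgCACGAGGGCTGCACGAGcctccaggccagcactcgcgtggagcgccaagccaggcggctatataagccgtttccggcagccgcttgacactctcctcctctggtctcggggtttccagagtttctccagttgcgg
Arrdc4, chr7:68749189-68749488 (−): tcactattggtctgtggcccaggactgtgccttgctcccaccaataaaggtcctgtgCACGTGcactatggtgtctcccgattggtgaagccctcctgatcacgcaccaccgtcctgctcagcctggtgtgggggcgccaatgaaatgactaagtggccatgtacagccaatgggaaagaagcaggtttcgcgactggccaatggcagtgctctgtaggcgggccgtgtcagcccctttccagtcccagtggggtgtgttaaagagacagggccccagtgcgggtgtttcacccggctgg
Both motifs were searched on both strands in 32851 promoters. The paired motif was in the promoters of 15 of 27025 genes (0.06%) and of Txnip alone among the 36 members with a promoter in the table. The single E-box was in a promoter of 8.09% of genes and of 7 of the 36 members, Arrdc4, Ldha, Pdk2, Pfkfb2, Pfkfb3, Pfkm and Slc16a1, which moved in both directions against DN3a or did not pass. A match does not show a bound site, and a missing match says only that these letters are not in the window.

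The regulators themselves differed in part. Mlx averaged 95.1 ± 7.45 CPM in DCKO, 61.5 ± 3.8 in DN3b and 57.6 ± 1.03 in DN3a, with no overlap of DCKO with either control, and was higher in DCKO than in DN3b by 0.63 ± 0.08 (adjusted p = 0.000299). Mlxip averaged 47.2 ± 13.1, 61.9 ± 8.13 and 102 ± 14.3 CPM in DCKO, DN3b and DN3a and was lower than in DN3a in DCKO (−1.11 ± 0.18, adjusted p = 0.00019) and in DN3b (−0.72 ± 0.18, adjusted p = 0.00462), with −0.39 ± 0.18 between DCKO and DN3b (adjusted p = 0.143). That DCKO difference passed without library 3 of DCKO (−0.6, adjusted p = 0.027). The dimer partner Max averaged 106 ± 5.59 CPM in DCKO, 94.2 ± 9.55 in DN3b and 70.2 ± 6.08 in DN3a, and was higher than in DN3a in DCKO (0.59 ± 0.1, adjusted p = 0.000201) and in DN3b (0.43 ± 0.1, adjusted p = 0.00264). The alpha-arrestin Arrdc1 averaged 23.2 ± 5.06, 34.1 ± 7.18 and 38.4 ± 6.58 CPM in DCKO, DN3b and DN3a and was lower in DCKO than in DN3a (−0.72 ± 0.18, adjusted p = 0.00434). Between DCKO and DN3b its −0.55 ± 0.18 missed the threshold (adjusted p = 0.0519), and it passed with DESeq2 (0.0265), with limma-voom (0.0492), and without library 1 of DN3a (0.0398), library 4 of DN3b (0.023) or library 4 of DCKO (0.0133). Arrdc2, at 4.8 ± 1.4, 7.16 ± 2.35 and 7.91 ± 1.58 CPM in DCKO, DN3b and DN3a, was lower in DCKO than in DN3a (−0.72 ± 0.26, adjusted p = 0.0292). That call was lost without library 1 of DN3a (0.0681) or 3 (0.073) or library 1 of DCKO (0.0738) or 2 (0.0677). Arrdc3, at 14.2 ± 2.15, 12.2 ± 3.38 and 20.8 ± 6.44 CPM in DCKO, DN3b and DN3a, was lower in DN3b than in DN3a (−0.77 ± 0.23, adjusted p = 0.0132), which was lost without library 2 of DN3a (0.0509). In DCKO against DN3a its −0.55 missed the threshold (adjusted p = 0.052) and passed in 11 of 20 other settings, among them DESeq2 (−0.56, adjusted p = 0.035) and upper quartile scaling (−0.79, adjusted p = 0.0124), over a range of adjusted p of 0.0124 to 0.213. Mlxipl and Arrdc5 had too few reads to test. Of the 6 tested genes of this kind, 1 was higher in DCKO than in DN3b and none was called lower by edgeR, with 3 lower at an unadjusted p under 0.05 and 1 called lower by DESeq2 and by limma-voom. In DCKO against DN3a 2 of the 6 were higher and 3 lower, with 4 lower by DESeq2 and at an unadjusted p under 0.05. By edgeR, 10.3% of all tested genes were higher and 8.58% lower in DCKO than in DN3b. Against DN3a these shares were 30.7% and 29.5%.

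Of the general regulators of glycolysis, 1 of 6 tested was called between DCKO and DN3b, where 18.9% of all tested genes were called. Hif1a, the hypoxia factor that drives many glycolytic genes, averaged 292 ± 46.2 CPM in DCKO, 187 ± 23 in DN3b and 162 ± 15 in DN3a. It was higher in DCKO than in DN3b (0.64 ± 0.13, adjusted p = 0.00437) and in DCKO than in DN3a (0.85 ± 0.13, adjusted p = 0.000112). Without DCKO libraries 1 and 2 the first of these calls was lost (adjusted p = 0.0917). Myc averaged 174 ± 24.5, 208 ± 20.6 and 132 ± 25.6 CPM in DCKO, DN3b and DN3a, and was higher than in DN3a in DCKO (0.4 ± 0.14, adjusted p = 0.0248) and in DN3b (0.66 ± 0.14, adjusted p = 0.00179). The DCKO call on Myc was lost without library 2 of DN3a (0.0756) or 3 (0.0707) or library 2 of DCKO (0.0629) or 4 (0.073), and under upper quartile scaling (0.263).

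Further genes of the pathway were read from lists of the same kind. Of 13 tested genes of pyruvate transport and the dehydrogenase complex, 4 were higher in DCKO than in DN3b. None was called lower by edgeR, DESeq2 or limma-voom, with 1 lower at an unadjusted edgeR p under 0.05. Of all tested genes 10.3% were called higher and 8.58% lower in that comparison. The subunit Pdhb averaged 179 ± 12.3 CPM in DCKO, 124 ± 13.4 in DN3b and 88.6 ± 3.13 in DN3a (0.53 ± 0.09 for DCKO against DN3b, adjusted p = 0.0019). The phosphatase Pdp2, which activates the complex, averaged 51.8 ± 3.94, 33.7 ± 4.18 and 28.4 ± 5.8 CPM in DCKO, DN3b and DN3a (0.62 ± 0.14 for DCKO against DN3b, adjusted p = 0.00866). The subunit Dlat (0.46 ± 0.11, adjusted p = 0.0141) lost its call without library 2 of DN3b (0.0577) or 3 (0.0593) or library 1 of DCKO (0.0611) or 2 (0.0533). The subunit Pdhx had 0.33 ± 0.1 (adjusted p = 0.0383), a call lost without library 1 of DN3b (0.0857), 2 (0.125) or 3 (0.11), library 3 of DN3a (0.0584) or 4 (0.0517), or library 1 of DCKO (0.141) or 2 (0.119).

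Of 8 other pentose phosphate genes tested, 3 were higher and 1 lower in DCKO than in DN3b, against 10.3% and 8.58% of all tested genes. The higher ones were Prps2 (0.51 ± 0.13, adjusted p = 0.016) and Prps1 (0.55 ± 0.16, adjusted p = 0.0341), which activate ribose 5-phosphate for nucleotide synthesis, and the epimerase Rpe (0.4 ± 0.11, adjusted p = 0.0192). Each of these calls was lost without any one of several libraries, with adjusted p up to 0.067 for Prps2 (DN3b libraries 2 and 3, DCKO libraries 1 and 2), 0.102 for Prps1 (DN3b libraries 1 to 3, DN3a library 3, DCKO libraries 1 to 3) and 0.0793 for Rpe (DN3b libraries 2 and 3, DCKO libraries 1 to 3). The lower one was the sedoheptulose kinase Shpk (−0.89 ± 0.23, adjusted p = 0.0163), which averaged 1.7 ± 0.591 CPM in DCKO, 3.17 ± 0.19 in DN3b and 4.44 ± 0.253 in DN3a. Of 20 other tested genes of glycolysis and hexose entry, 3 were higher and 2 lower in DCKO than in DN3b. In DCKO against DN3a 10 were higher and 3 lower, and in DN3b against DN3a 12 were higher and 3 lower. Over all tested genes the shares were 10.3% and 8.58%, 30.7% and 29.5%, and 27.4% and 25.2%, in the same order. The mitochondrial phosphatase Pgam5 was higher in DCKO than in DN3b (0.42 ± 0.08, adjusted p = 0.00391), and the urate transporter Slc2a9 was lower (−0.71 ± 0.18, adjusted p = 0.0176; 0.0507 without DN3b library 2).

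The DN3b libraries also differed among themselves over these genes. Of the 7 genes lower in DN3b than in DN3a, DN3b library 1 had the highest DN3b value for 7 and library 4 the lowest for 6. Of the 22 genes higher in DN3b than in DN3a, library 4 had the highest DN3b value for 14 and library 1 the lowest for 12. Among the same 22, library 1 had the highest DN3b value for 5 and library 2 the lowest for 9. For most of these genes library 1 was thus the DN3b library nearest to the DN3a libraries as a group, and library 4 the one farthest from them. Such counts were not made over all tested genes, so the pattern may not be particular to these genes. The DN3a libraries differed too. Of the same 22 genes, DN3a library 4 had the highest DN3a value for 14, and library 2 the lowest for 14. DN3a library 1 had the highest for 7 and the lowest for 6. Distance of each DN3b library from the DN3a library of its own number was not compared here. The proportion of cells of each stage in each library was not tested.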

How the data were processed

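Total RNA of FACS-sorted thymus pre-T cells was sequenced in 12 libraries, 3 groups of 4 biological replicates per the labels. The deposited count table holds whole-number counts per Ensembl gene, and per the submitters' processing notes Trim Galore, TopHat2 2.0.12, HTSeq, DESeq2 1.6.3 and GRCm38 were used. Annotation and the strand setting of counting were not given in the sources used here. The authors also deposited tables of comparisons with log2 fold changes and adjusted p-values per gene, which were only set beside the results.

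The counts were tested with edgeR 4.0.16 (R 4.3.3) by the quasi-likelihood F test, with TMM scaling, a minimum count of 10 (filterByExpr), all 12 libraries in a single fit by group (9 residual degrees of freedom), two-sided, with Benjamini-Hochberg adjustment over 13944 genes and a threshold of 0.05. Standard errors are the fold change divided by the root of F. CPM uses TMM-scaled library sizes. The scripts were tested on simulated data. Replicates are said to be biological, so p-values measure the spread between these samples. Paralogue ratios, log2 of counts with 0.5 added, were compared by exact permutation over libraries. Alternatives were DESeq2 1.42.0, limma-voom (limma 3.58.1), upper quartile scaling, no filter, a minimum count of 50, 8 libraries alone, those with the replicate number as a block, each library left out, and DCKO libraries 1 and 2 left out.

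DN3b and DN3a libraries of the same number deviated together (correlations 0.35 to 0.56 for the 4 pairs), so the numbers pair them, from the data and not from the labels, and blocked values are given where they change a call. No 2 libraries of a group agreed within counting error (chi-square per degree of freedom of 33.5 or more). Depth was 28479157 to 45975678 counts, and intervals of counting error were not added to CPM values. 3′ regions and shared 50-base stretches came from GENCODE M21, promoters from RefSeq GRCm38.p6.

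The 37 members and the further gene lists were chosen with earlier results of these data known. Values in every library are given for members called with an absolute log2 change of 1 or more and for the Hk, Pdk, Pfkfb, Ldh, Slc2a and Slc16a families. Of other pathway lists the genes with the 3 smallest adjusted p per comparison could be named, with all partners of MondoA, Myc and Hif1a. Pfkfb1 was named besides these, as a relative of the Pfkfb members.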

Additional observations from a re-analysis of the deposited data

Results flagged for a closer look

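In 4 of 108 tests of a group's 4 values for a sample far from the others, the gap to the nearest value, divided by the whole range, passed Dixon's critical value of 0.829, and chance alone flags about 5% of such tests. DCKO library 4 had 40.3 CPM of Pfkm, where the other DCKO libraries had 30.2 to 31.5. The same library had 217 CPM of Eno1, where the others had 136 to 148. DN3a library 2 had 6.31 CPM of Pdk2, where the other DN3a libraries had 7.34 to 7.46. DN3a library 3 had 615 CPM of Txnip, where the others had 539 to 546. Without DCKO library 4, Eno1 passed the threshold between DCKO and DN3b, at −0.68 (edgeR adjusted p = 0.021).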

How the results depend on the processing

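All 3 comparisons moved with the processing, and among the 36 genes only counts of DCKO against DN3b moved by over 1.5 times in the settings tried. Its 2 genes called higher became 1 with the replicate block, 1 under upper quartile scaling and 1 without DCKO libraries 1 and 2, and 1 to 2 when each library was left out. Its 4 genes called lower became 6 under upper quartile scaling, where Gpi1 and Eno1 also passed, 2 with no filter, 2 with the 8 libraries alone, 0 with the replicate block and 0 without DCKO libraries 1 and 2, and 2 to 6 when each library was left out. At an unadjusted edgeR p under 0.05, 10 genes were lower in the reported fit, 15 under upper quartile scaling, 7 with the block and 4 without DCKO libraries 1 and 2. DESeq2 and limma-voom on all libraries called 4 and 3 lower. The share of all tested genes at that unadjusted cut was not counted, here or for the groups of genes above. Over all genes the calls of 1438 higher and 1197 lower became 589 and 473 with the replicate block and 528 and 422 without DCKO libraries 1 and 2. They were 839 and 831 without DN3b library 2, 783 and 818 without DN3b library 3, 899 and 831 without DCKO library 1, and 881 and 773 without DCKO library 2. DCKO numbers did not pair with those of DN3b or DN3a (correlations −0.26 to 0.12). In DCKO against DN3a, 21 higher and 7 lower became 18 to 22 and 6 to 7 when each library was left out, and 17 to 22 and 6 to 9 in the other settings. In DN3b against DN3a, 22 higher and 7 lower became 20 to 23 and 7 when each library was left out, and 20 to 25 and 7 to 9 in the other settings. The 12 ratio tests at the smallest exact p were the same with 2 added to each count. The ratios within pairs of DN3b and DN3a libraries, added after seeing the data, had the same means, and the exact sign-flip p was 0.125, the smallest that 4 pairs allow, for 5 of 6 ratios and 0.25 for Slc2a3 to Slc2a1. No called fold change of a member changed sign in any setting. The causes of these changes were not tested. Sequence shared with processed copies limits Gapdh, Eno1, Pgk1 and Pgam1, and few reads limit Slc16a3, Arrdc4, Aldoc and Pdk2.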

Other observations

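Side branches of the pathway also differed from DN3a. Of 11 tested genes of the serine and hexosamine branches, 8 were higher and 3 lower in DCKO than in DN3a, and 7 higher and 3 lower in DN3b than in DN3a. In DCKO against DN3b 2 were higher and none was called lower by edgeR, DESeq2 or limma-voom, with 1 lower at an unadjusted edgeR p under 0.05. Over all tested genes the shares called by edgeR were 30.7% and 29.5%, 27.4% and 25.2%, and 10.3% and 8.58%, in the same order. The serine hydroxymethyltransferases, which pass a carbon from serine to folate, were Shmt1, at 247 ± 30.6 CPM in DCKO, 207 ± 27.7 in DN3b and 65.7 ± 13.7 in DN3a, and Shmt2, at 218 ± 40.1, 288 ± 47.9 and 68.1 ± 16.7 (SD, n = 4 each). Both were higher than in DN3a, Shmt1 by 1.91 ± 0.15 in DCKO and 1.65 ± 0.15 in DN3b, and Shmt2 by 1.68 ± 0.19 and 2.08 ± 0.19 (edgeR adjusted p from 2.71e-06 to 2.58e-05). Gfpt1, which opens the hexosamine pathway, lay at 84.9 to 122 CPM in DCKO, 49.7 to 65.9 in DN3b and 49.9 to 74.1 in DN3a. It was higher in DCKO than in DN3b by 0.77 ± 0.14 (adjusted p = 0.003) and in DCKO than in DN3a by 0.68 ± 0.14 (adjusted p = 0.00124). Ogt, which adds the end product to proteins, averaged 381 ± 22.6, 369 ± 49.8 and 722 ± 77.3 CPM in DCKO, DN3b and DN3a. It was lower than in DN3a by −0.92 ± 0.12 in DCKO (adjusted p = 3.11e-05) and by −0.97 ± 0.12 in DN3b (adjusted p = 5.3e-05).

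Of 10 tested genes of gluconeogenesis and the NADH shuttles, 6 were higher and 2 lower in DCKO than in DN3a and likewise 6 and 2 in DN3b. Of all tested genes 30.7% were higher and 29.5% lower in DCKO than in DN3a, and 27.4% and 25.2% in DN3b. The shuttle enzyme Got1 averaged 45 ± 9.69 CPM in DCKO, 40 ± 8.31 in DN3b and 11.7 ± 1.16 in DN3a, while Pck2, the mitochondrial form of the enzyme that makes phosphoenolpyruvate from oxaloacetate, averaged 6.34 ± 1.25, 11.4 ± 4.66 and 31.6 ± 3.18. Between DCKO and DN3b, 1 gene of this list was higher and 2 were lower, against 10.3% and 8.58% of all tested genes. The glucose 6-phosphatase subunit G6pc3 was lower by −0.69 (adjusted p = 0.00943).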
